A study of Mus musculus with 24 samples.

Results

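The mitosis and spindle genes are 47 mouse genes whose products carry a cell from entry into mitosis to the cut between the daughter cells. They were taken as a list of gene symbols, drawn up with earlier results of these data known, and all 47 were found among 24421 symbols and passed the filter on low counts, beside 14693 genes tested in all. Total RNA was sequenced from bone marrow-derived macrophages (BMDMs), which are grown from the marrow of mice, here C57BL/6J mice of 12 weeks. There were 6 groups of 4 libraries. Wild-type (WT) cells and OGT knockout (KO) cells were each left unstimulated (M0), stimulated with LPS at 100 ng/ml for 12 hours (M1 in the labels), or stimulated with IL-4 at 10 ng/ml for 12 hours (M2 in the labels). OGT adds the sugar N-acetylglucosamine to serines and threonines of proteins inside the cell. The sources used here do not say how the knockout was made, in which cells it was induced, or whether the libraries of a group come from separate mice or cultures. The p-values therefore measure the spread between these libraries, which may be technical. Each library carries a number from its label code, 1 to 4 for WT and 5 to 8 for KO, and is named by it.

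Entry into mitosis is driven by CDK1 bound to cyclins A and B, and by the kinases that it and FOXM1, a transcription factor of the G2 phase, help to switch on. Condensins and topoisomerase II compact and untangle the chromosomes, kinesins and microtubule-binding proteins build the spindle, kinetochore proteins tie chromosomes to it, and the spindle checkpoint holds back the anaphase-promoting complex until each one is attached. Most of these genes are transcribed only in cells that are cycling, so in bulk RNA fewer dividing cells and less RNA per dividing cell cannot be told apart. Macrophages grown from marrow divide in response to the growth factor CSF1, and bacterial LPS is known to arrest that division.

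Levels are given as counts per 1e6 counts (CPM), computed with edgeR's effective library sizes. Library totals ranged from 63429271 to 94942464 gene counts in 21 libraries. The other 3, WT LPS libraries 1 and 2 and KO LPS library 7, held 172771 to 209368. In these shallow libraries a member had 0 to 11 counts, with a median of 2, against 110 to 14553 counts and a median of 2319 in the deep libraries. A count of 0 allows up to 15.5 to 17.9 CPM in a shallow library and up to 0.0303 to 0.055 CPM in a deep one, counting error only, so LPS values are given for deep and shallow libraries apart. Ogt, the targeted gene, was lower in KO in each state, by the edgeR quasi-likelihood test. In M0 it changed by -0.49 ± 0.058 (SE, adjusted p = 6.4e-07) on the log2 scale, after LPS by -0.63 ± 0.073 (SE, adjusted p = 2.59e-07) and after IL-4 by -0.71 ± 0.058 (SE, adjusted p = 1.03e-09), so most of the Ogt signal was still counted in KO, and whether it covers the deleted part cannot be told. The 8 macrophage markers summed to 11759.6 to 13367 CPM in WT M0 and 7299.9 to 9034 CPM in KO M0, with none at 0. In M0 KO libraries 5 and 6 differed from each other by a chi-square of 9.09 per degree of freedom over gene counts, where sampling noise gives about 1, and libraries 7 and 8 by 8.51. Between these pairs it was 47 to 63.8, and 12.1 to 32.2 between WT M0 libraries, so KO libraries 5 and 6 stood apart from 7 and 8.

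The genes share a promoter feature that the choice by symbol did not use. A pair of short elements is known from promoters of G2 and mitosis genes. The following upstream stretches are printed as examples of how the elements are spaced, and do not show the layout of every member. The first is the cell cycle genes homology region (CHR), searched as TTTGAA or TTCGAA, which is read by the DREAM and MuvB complexes. The other is the CCAAT box, read by NF-Y. Both strands were searched, and neither element contains the other. The RefSeq table of GRCm38.p6 promoters, which spans 250 bases before to 50 after the gene start, had an entry for 39 of the 47 members. The sequences below are the 150 bases before the start, read 5′ to 3′ on the gene's strand, with matches to either element on either strand in capitals. The stretch before the mitotic kinase gene Cdk1 lies at chr10:69352913-69353062 (- strand), that before the checkpoint target Cdc20 at chr4:118437344-118437493 (- strand), the ubiquitin-conjugating enzyme gene Ube2c at chr2:164769779-164769928 (+ strand), the separase gene Espl1 at chr15:102296143-102296292 (+ strand), the spindle kinesin gene Kif11 at chr19:37376232-37376381 (+ strand) and the topoisomerase gene Top2a at chr11:99024190-99024339 (- strand). That of Nusap1, a microtubule-bundling protein gene, lies at chr2:119618148-119618297 (+ strand) and is printed as one with no match.
Cdk1: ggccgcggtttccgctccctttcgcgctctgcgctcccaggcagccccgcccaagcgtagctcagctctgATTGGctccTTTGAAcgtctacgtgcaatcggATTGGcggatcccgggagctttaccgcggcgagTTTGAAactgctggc
Cdc20: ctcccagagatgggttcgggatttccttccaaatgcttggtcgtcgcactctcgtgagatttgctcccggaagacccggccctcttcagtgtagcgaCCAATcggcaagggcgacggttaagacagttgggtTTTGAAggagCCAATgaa
Ube2c: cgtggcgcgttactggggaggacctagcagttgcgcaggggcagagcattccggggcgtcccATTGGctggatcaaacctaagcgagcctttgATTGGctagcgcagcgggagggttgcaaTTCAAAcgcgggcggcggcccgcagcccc
Espl1: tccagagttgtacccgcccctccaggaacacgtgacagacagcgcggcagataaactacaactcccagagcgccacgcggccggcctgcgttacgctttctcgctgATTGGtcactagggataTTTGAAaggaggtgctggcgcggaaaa
Kif11: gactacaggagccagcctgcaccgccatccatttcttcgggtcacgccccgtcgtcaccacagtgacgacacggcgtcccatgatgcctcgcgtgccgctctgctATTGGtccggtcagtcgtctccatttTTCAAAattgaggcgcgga
Top2a: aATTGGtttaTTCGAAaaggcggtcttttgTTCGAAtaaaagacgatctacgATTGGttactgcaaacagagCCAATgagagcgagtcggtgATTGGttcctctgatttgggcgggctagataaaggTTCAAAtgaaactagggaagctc
Nusap1: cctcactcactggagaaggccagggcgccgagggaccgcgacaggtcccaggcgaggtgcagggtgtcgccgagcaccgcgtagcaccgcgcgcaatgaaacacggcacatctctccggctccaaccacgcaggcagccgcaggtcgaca

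In these stretches the CCAAT box lies upstream of a CHR match in Cdk1, Ube2c, Espl1 and Kif11, whereas Top2a carries several matches of each and Cdc20 has a CCAAT box on either side of its CHR. Over the 300 bases of the table, 32 of the 39 members (82.1%) held a CHR element, against 16.2% of 11021 tested genes with an entry and 21.7% of all 27025 entries. TTTGAA was found in 31 members (79.5%, against 14.2% of tested genes) and TTCGAA in 3 (7.69%, against 2.43%). A CCAAT box was found in 30 members (76.9%, against 42.5%), and both elements in 28 (71.8%, against 6.61%). These counts include matches in the 50 bases after the start, and many members did not have the printed layout. In the 250 bases before the start most of the 39 members had 0 CHR matches. Among them were Ccnb1, Aurka, Plk1, Bub1, Ttk, Birc5, Cdca8 and Cenpa. For many members the CHR counted over the 300 bases thus lay after the start or across it. In Bub1b the CHR (base -188) lay upstream of the CCAAT box (base -113). A match is a run of letters and not a shown binding site.

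Per kilobase of exon, which allows levels to be set between genes, the highest members in WT M0 were Cdc20, the activator of the anaphase-promoting complex, at 34.1 mean CPM per kb, cyclin B2 (Ccnb2) at 29.7, the polo-like kinase Plk1 at 27.8 and Ube2c, which feeds ubiquitin to the same complex, at 21.2. The lowest were the kinesin Kif15 at 0.974, the kinetochore protein gene Cenpf at 1.39, the condensin subunit Ncapg at 1.66 and the checkpoint kinase Ttk at 1.83. Lengths are GENCODE exon unions of GRCm38, which also hold rare isoforms. In that annotation 14 members share exon bases with another gene, and 6 share 10% or more of them, namely Kif20a with Cdc23 (29.3%), Ube2c with Tnnc2 (22.8%), Kif4 with Pdzd11 (15.1%), Ncapg with Lcorl (13.4%), Ccna2 with Exosc9 (12.5%) and Prc1 with Rccd1 (11.1%), each on the opposite strand. No source used here gives the strand setting of the counting, so the values of these 6 genes are uncertain.

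Summed over the 47 genes, the level was 1926, 1976, 1808 and 1866 CPM in the WT M0 libraries and 2635, 2616, 2443 and 2559.5 CPM in WT IL-4. In WT LPS it was 754 and 787 CPM in the deep libraries and 681 and 685 in the shallow ones. The KO libraries summed to 1679, 1658, 1548 and 1495 CPM in M0, to 2116, 2111, 1839 and 1771 in IL-4 and, in LPS, to 642, 654 and 649 in the deep libraries and 609.9 in the shallow one. The states did not overlap within a genotype, in the order LPS, M0, IL-4. Each KO library lay below each WT library of its state. Within KO, libraries 7 and 8 were below libraries 5 and 6 in both M0 and IL-4.

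**Figure D1:**
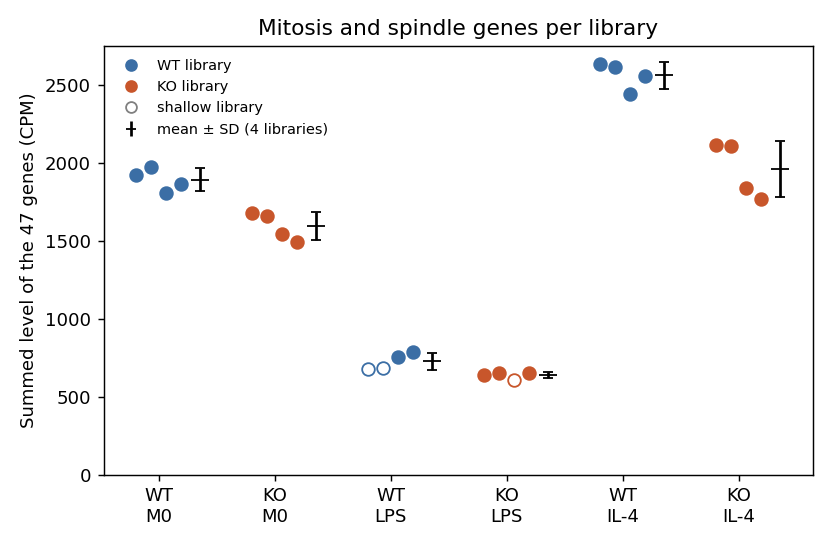
Summed level of the 47 mitosis and spindle genes (CPM, linear axis from 0) in each library of the 6 groups, with points for libraries, open points for the 3 shallow ones, and the mean ± SD of 4 libraries beside them. The LPS libraries sit lowest and the IL-4 libraries highest in both genotypes, with KO below WT in each state.

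The whole set was lower after LPS in both genotypes. All 47 members were lower after LPS in WT (adjusted p under 0.05), where 28.2% of all tested genes were lower, and 43 fell at least 2-fold. The median log2 fold change was -1.38, against -0.01 over all tested genes. All 47 were also lower after LPS in KO, where 35.9% of all tested genes were lower, with 42 at least 2-fold down and a median of -1.45, against -0.07. The libraries of the pair of states did not overlap for 45 members in WT (23.5% of all genes) and 44 in KO (28.5%). Without the 3 shallow libraries, 47 were lower in WT and 47 in KO.

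By the smallest adjusted p in WT, the leading genes came from entry into mitosis, the spindle, the kinetochore, the checkpoint and the final division. Cyclin A2 (Ccna2) changed by -1.58 ± 0.087 (SE, adjusted p = 2.44e-15) on the log2 scale and the checkpoint kinase-like protein gene Bub1b by -1.58 ± 0.097 (adjusted p = 2.27e-14). Kif11, the motor that pushes the spindle poles apart, changed by -1.71 ± 0.097 (adjusted p = 4.22e-15), and Cenpa, the centromeric histone H3 variant, by -1.93 ± 0.11 (adjusted p = 4.31e-15). Both subunits of centralspindlin, the complex that organises the midzone before the cell is cut, fell steeply. Racgap1 changed by -1.76 ± 0.10 (adjusted p = 6.82e-15) and Kif23 by -1.95 ± 0.12 (adjusted p = 2.2e-14), the steepest fall among the members. In KO the leading genes were Cdc20 at -1.81 ± 0.078 (adjusted p = 4.03e-18), Kif11 at -1.83 ± 0.085 (adjusted p = 2.38e-17), Kif23 at -2.20 ± 0.10 (adjusted p = 3.85e-17), Cenpa at -1.95 ± 0.095 (adjusted p = 8.93e-17), the passenger complex gene Cdca8 at -1.55 ± 0.077 (adjusted p = 1.18e-16) and Bub1b at -1.70 ± 0.085 (adjusted p = 1.47e-16).

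The values by library show the size of the fall. Mki67, which encodes the proliferation marker Ki-67, was at 81.9, 79.7, 69.002 and 83.7 CPM in WT M0 and at 24.96 and 27.9 CPM in the deep WT LPS libraries and 15.5 and 26.2 in the shallow ones. Cdk1 was at 58.5, 66.6, 54.3 and 57.3 CPM in WT M0 and at 26.9 and 30.1 CPM in the deep WT LPS libraries and 41.3 and 20.9 in the shallow ones. Top2a was at 128, 115, 109 and 119.9 CPM in WT M0 and at 47.4 and 48.3 CPM in the deep WT LPS libraries and 56.7 and 47.1 in the shallow ones. In each of these genes the deep LPS libraries lay far below every M0 library, and the shallow ones were below it too. On the log2 scale Mki67 changed by -1.58 ± 0.10 (SE, adjusted p = 1.36e-13), Cdk1 by -1.05 ± 0.093 (adjusted p = 9.24e-11) and Top2a by -1.29 ± 0.11 (adjusted p = 1.4e-11). In KO the same genes changed by -1.45, -1.03 and -1.44.

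Each role group was lower after LPS. The role medians in WT ran from -1.18 for the mitotic kinases with their activator TPX2 (5 genes) to -1.52 for the 6 cytokinesis genes, with -1.52 for the 6 kinetochore genes and -1.43 for the 8 spindle motors and microtubule-binding proteins. In KO they ran from -1.20 for the kinases to -1.69 for the 6 genes of the checkpoint, the anaphase-promoting complex and separase. The smallest fall in WT was that of Incenp, the scaffold of the chromosomal passenger complex (-0.65 ± 0.079, SE, adjusted p = 4.7e-08). In KO it was that of Tpx2, which activates Aurora A on the spindle (-0.25 ± 0.075, adjusted p = 0.00489).

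**Figure D2:**
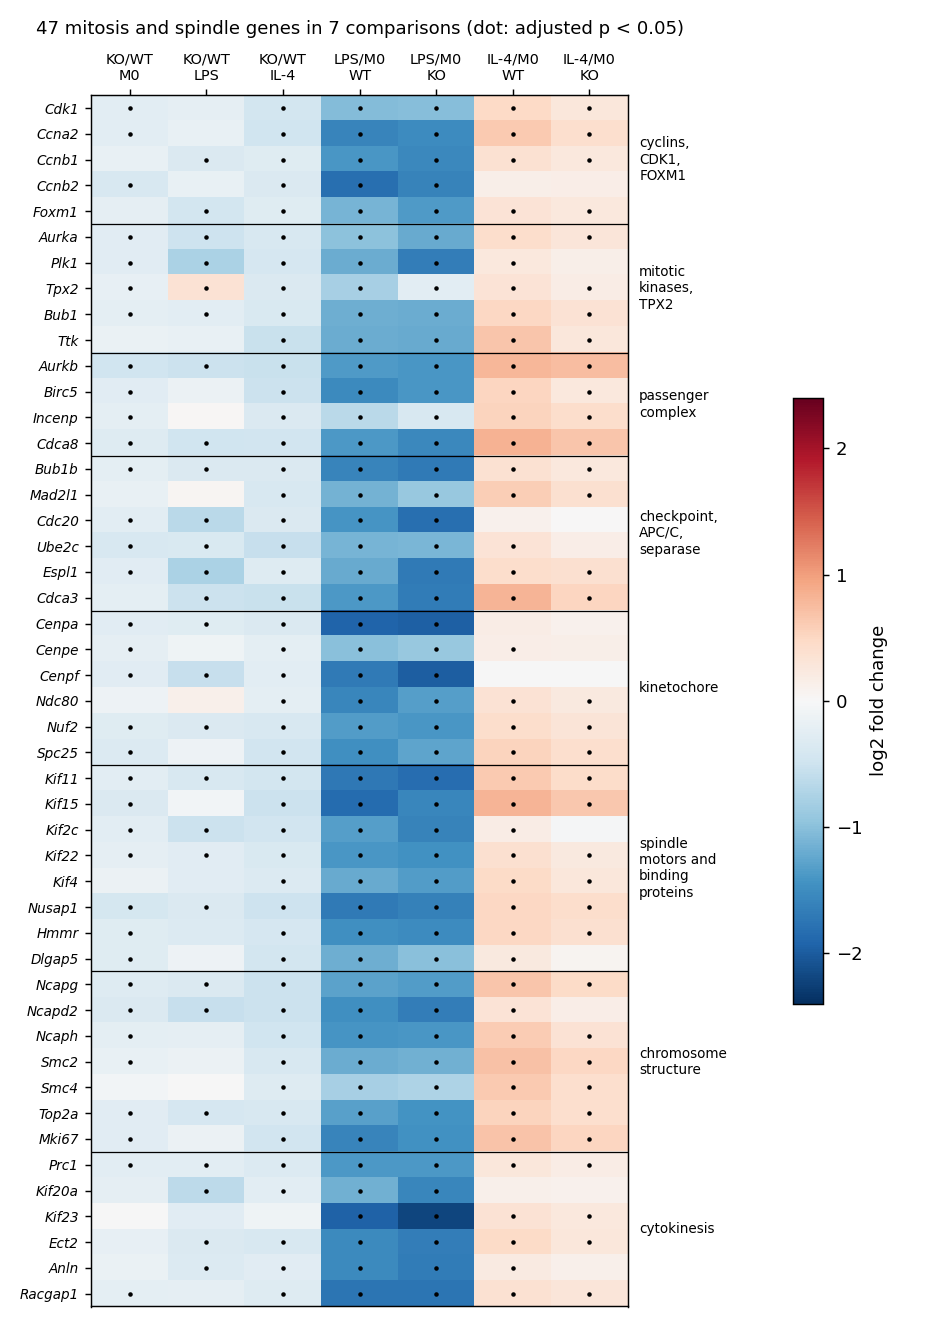
Heat map of the log2 fold change of the 47 genes (rows, by role) in 7 comparisons (columns), with blue for negative and red for positive values and a dot where the adjusted p was under 0.05. Both LPS columns are blue with a dot in all 47 rows, most rows of the IL-4 columns are red, and the KO against WT columns are pale blue, with Tpx2 the dotted red row in LPS.

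Most of the set was higher after IL-4, by less than 2-fold. In WT 42 of the 47 members were higher after IL-4, where 30.8% of all tested genes were higher, with a median log2 fold change of 0.42 against -0.01 over all tested genes. In KO 35 members were higher, where 26% of all tested genes were higher, with a median of 0.27 against -0.02. The libraries did not overlap for 39 members in WT (29.8% of all genes) and for 25 in KO (25.2%). With DESeq2 in place of edgeR the counts of higher members were 25 in WT and 12 in KO, where 20.2% and 14.6% of all tested genes were higher. The KO count was 22 without KO M0 library 8 or KO IL-4 library 5, 21 without KO IL-4 library 6 and 23 without KO libraries 5 and 6 in all states. In these fits 20%, 19.5%, 19.7% and 20.4% of all tested genes were higher, in that order.

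The role groups with the highest medians were those of chromosome structure and of the chromosomal passenger complex, which corrects wrong attachments and steers the final division. All 7 condensin and chromosome genes were higher in WT (median 0.63) and 6 in KO (median 0.40). All 4 passenger complex genes were higher in both, with medians of 0.67 in WT and 0.55 in KO. In WT Cdca8 changed by 0.84 ± 0.065 (SE, adjusted p = 9.43e-12), the kinase gene Aurkb by 0.80 ± 0.091 (adjusted p = 1.81e-08), the core condensin ATPase genes Smc2 by 0.70 ± 0.056 (adjusted p = 1.59e-11) and Smc4 by 0.63 ± 0.058 (adjusted p = 3.12e-10), Ccna2 by 0.62 ± 0.065 (adjusted p = 3e-09) and Kif11 by 0.62 ± 0.070 (adjusted p = 1.6e-08). In KO the leading genes were Cdca8 at 0.67 ± 0.065 (adjusted p = 1.26e-09), Smc2 at 0.50 ± 0.056 (adjusted p = 2.2e-08), Aurkb at 0.74 ± 0.092 (adjusted p = 1.39e-07), Smc4 at 0.39 ± 0.058 (adjusted p = 1.88e-06), Incenp at 0.43 ± 0.064 (adjusted p = 2.75e-06) and Mki67 at 0.51 ± 0.079 (adjusted p = 5.36e-06).

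Mki67 was at 122, 122, 129 and 132 CPM in WT IL-4 and Top2a at 179, 164, 162 and 174 CPM, above every WT M0 library of the same gene. Cdk1 was at 84.6, 88.8, 76.2 and 80.3 CPM in WT IL-4, again above every M0 value. A few members did not pass the test in WT. These were Ccnb2 (0.13), Cdc20 (0.11), Cenpa (0.18), Cenpf (-0.02) and the cytokinesis kinesin gene Kif20a (0.13). Cdc20, the highest of the set per kilobase, was at 62.9, 70.5, 63.7 and 57.8 CPM in WT M0 and 70.3, 75.6, 62.2 and 67.2 CPM in WT IL-4, which overlap. The same 5 genes were also among the 12 that did not pass in KO.

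In KO libraries the set was lower than in WT at rest. In M0, 35 of the 47 members were lower in KO, where 10.4% of all tested genes were lower, and all 47 log2 fold changes were negative, with a median of -0.25 against 0.02 over all tested genes. The values ran from -0.47 to -0.02. The 4 libraries of KO did not overlap those of WT for 35 members (13.6% of all genes). Called members were 3 of 5 in the CDK1, cyclin and FOXM1 group, 4 of 5 kinases, 4 of 4 passenger genes, 4 of 6 checkpoint genes, 5 of 6 kinetochore genes, 7 of 8 spindle genes, 6 of 7 condensin and chromosome genes and 2 of 6 cytokinesis genes. No member kept its call under every alternative tried. DESeq2 called 5 (Aurkb, Ccnb2, Ncapd2, Nusap1 and Ube2c), and 0 were called when libraries were summed in pairs of label numbers, with 33 at an unadjusted p under 0.05. Without KO library 8 in M0 the count was 22, and without KO libraries 7 and 8 in all states it was 23.

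The 6 members with the smallest adjusted p in M0 were Nusap1, Aurkb, Ube2c, Cdca8, Ccnb2 and the condensin subunit gene Ncapd2. Nusap1 was at 23.3, 23.5, 20.98 and 24.4 CPM in WT and 18.9, 18.2, 16.8 and 15.3 in KO, a log2 fold change of -0.41 ± 0.076 (SE, adjusted p = 0.000248). Aurkb was at 30.1, 31.8, 29.9 and 27.8 CPM in WT and 24.5, 23.9, 18.8 and 18.9 in KO, at -0.47 ± 0.092 (adjusted p = 0.000455). Ube2c was at 52.9, 63.7, 50.6 and 53.6 CPM in WT and 45.1, 42.6, 39.7 and 40.8 in KO, at -0.39 ± 0.081 (adjusted p = 0.00089). In these genes every KO library lay below every WT library. Ccnb2 was at 43.8, 48.7, 46.6 and 42.9 CPM in WT and 39.8, 37.7, 30.8 and 31.3 in KO (-0.38 ± 0.083, adjusted p = 0.00147), and Ncapd2 at 74.9, 78.6, 74.6 and 71.4 and 62.96, 62.03, 53.2 and 56.5 CPM (-0.35 ± 0.079, adjusted p = 0.00197). Again the genotypes did not overlap. Cdca8 changed by -0.30 ± 0.065 (adjusted p = 0.00125).

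Genes widely used as signs of proliferation were also lower. Cdk1 was at 52.5, 51.1, 47.4 and 48.5 CPM in KO M0 (-0.25 ± 0.073, SE, adjusted p = 0.0157), and its values lay below all 4 WT values given above. Mki67 was at 65.1, 71.4, 62.4 and 60.9 CPM in KO M0 (-0.27 ± 0.079, adjusted p = 0.0135) and Top2a at 109, 109, 89.95 and 84.8 CPM (-0.26 ± 0.083, adjusted p = 0.0214), and both overlapped with WT in at least 1 library. Plk1 was at 63.1, 65.7, 60.4 and 54.98 CPM in WT and 51.9, 49.95, 50.4 and 48.9 in KO (-0.28 ± 0.080, adjusted p = 0.0128), without overlap. Spc25, a subunit of the NDC80 complex that grips microtubules at the kinetochore, was at 20.7, 24.6, 20.97 and 21.8 and 18.9, 16.98, 17.2 and 17.3 CPM (-0.32 ± 0.079, adjusted p = 0.004), and Prc1, which bundles midzone microtubules, at 59.6, 60.9, 57.7 and 60.9 and 53.2, 50.8, 50.3 and 46.3 CPM (-0.25 ± 0.067, adjusted p = 0.00711). Cyclin B1 (Ccnb1) did not pass, at 47.5, 47.7, 43.6 and 45.1 CPM in WT and 41.6, 41.3, 39.5 and 39.6 in KO (-0.18 ± 0.073, adjusted p = 0.0746). The value nearest to 0 was that of Kif23 (-0.02 ± 0.084, adjusted p = 0.924).

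After IL-4 the set was lower in KO almost throughout. Of the 47 members 46 were lower in KO, where 18.1% of all tested genes were lower, with a median log2 fold change of -0.38 against 0.01. For the same number of members, 46, the genotypes did not overlap (19.8% of all genes), and the exception in both counts was Kif23 (-0.11 ± 0.084, SE, adjusted p = 0.331). The values ran from -0.56 to -0.11, and the role medians from -0.29 for cytokinesis to -0.49 for the passenger complex. With DESeq2 28 were lower, and 29 when libraries were summed in pairs, where 8.99% and 5.94% of all tested genes were.

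The leading genes were Ccna2 at -0.47 ± 0.065 (SE, adjusted p = 3.06e-06), Cdca8 at -0.47 ± 0.064 (adjusted p = 3.48e-06), Smc2 at -0.38 ± 0.055 (adjusted p = 6.75e-06), Ube2c at -0.56 ± 0.081 (adjusted p = 7.09e-06), Nusap1 at -0.49 ± 0.076 (adjusted p = 1.47e-05) and Ncapd2 at -0.51 ± 0.079 (adjusted p = 1.81e-05). Ube2c, the steepest, was at 68.7, 78.4, 60.8 and 68.2 CPM in WT IL-4 and 51.4, 50.7, 45.1 and 40.6 in KO IL-4. Nusap1 was at 33.4, 34.01, 31.03 and 32.2 and 26.4, 24.96, 20.8 and 20.8 CPM, and Ncapd2 at 100.3, 95.2, 86.3 and 91.9 and 73.4, 74.8, 60.3 and 54.6 CPM. In each of these genes KO libraries 7 and 8 were below libraries 5 and 6, and all 4 were below WT.

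Among the others, Mki67 was at 103, 97.02, 85.1 and 84.4 CPM in KO IL-4 (-0.45 ± 0.079, SE, adjusted p = 6.53e-05), Top2a at 146, 139.9, 121 and 109.6 CPM (-0.39 ± 0.083, adjusted p = 0.000543) and Cdk1 at 63.4, 66.4, 57.7 and 54.02 CPM (-0.45 ± 0.073, adjusted p = 2.68e-05), each below the WT IL-4 values above. The kinases showed the same order. Aurkb was at 53.1, 55.8, 49.8 and 48.97 CPM in WT and 40.4, 40.1, 32.4 and 30.5 in KO (-0.53 ± 0.091, adjusted p = 5.02e-05). Plk1 was at 77.05, 81.03, 64.2 and 70.5 CPM in WT and 57.3, 61.9, 52.7 and 48.5 in KO (-0.41 ± 0.080, adjusted p = 0.000256). Ccnb1, which did not pass in M0, was at 63.8, 59.5, 55.5 and 57.1 and 51.1, 51.1, 46.4 and 45.3 CPM in IL-4 (-0.28 ± 0.073, adjusted p = 0.0034). Every KO value of these genes lay below every WT value. The separase gene Espl1 was at 28.4, 25.3, 25.6 and 24.5 CPM in WT and 23.03, 22.2, 20.2 and 18.5 in KO (-0.31 ± 0.075, adjusted p = 0.00207). Spc25 was at 33.98, 34.7, 28.3 and 31.2 and 25.9, 24.9, 22.4 and 19.99 CPM (-0.46 ± 0.078, adjusted p = 5.3e-05), and Prc1 at 70.7, 70.4, 71.5 and 75.1 and 62.3, 60.2, 51.7 and 53.6 CPM (-0.34 ± 0.067, adjusted p = 0.000289), in WT and KO.

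**Figure D3:**
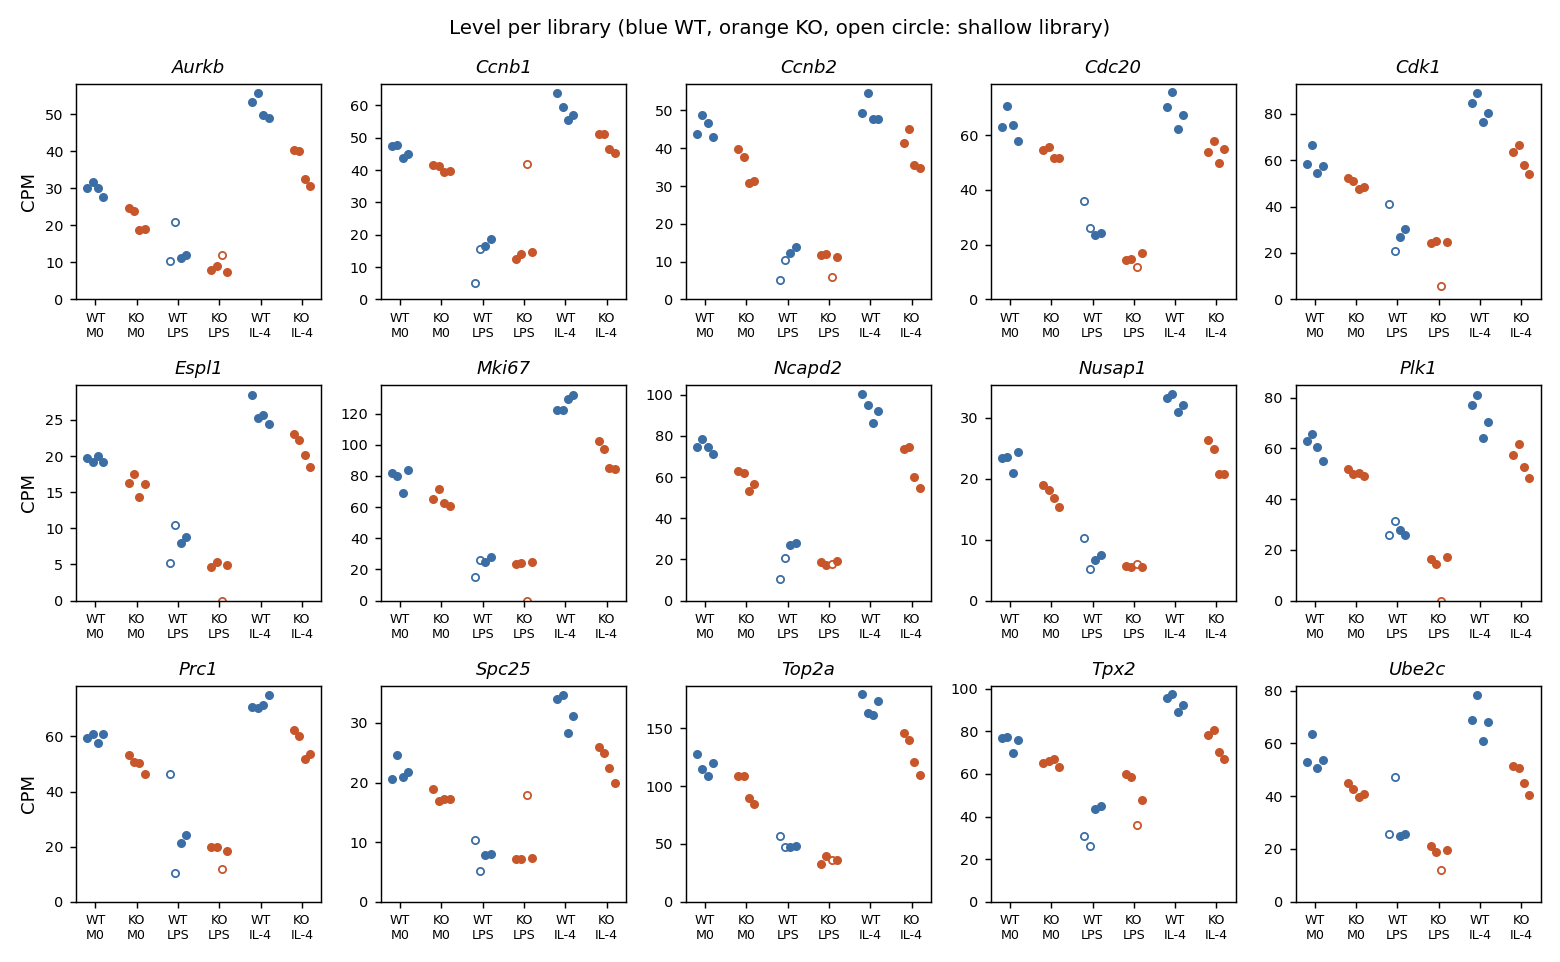
Level (CPM, linear axes from 0) of 15 of the genes in each library of the 6 groups, with blue points for WT, orange for KO and open circles for the 3 shallow LPS libraries. Of the deep libraries those of LPS sit lowest in each panel, KO lies below WT in IL-4 in all 15, and Tpx2 alone has its deep KO LPS points above the WT ones.

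After LPS, where the set was low in both genotypes, 26 of the 47 members were lower in KO, where 14.5% of all tested genes were lower, and 1 was higher, where 16.1% of all tested genes were higher. The median log2 fold change was -0.29 against 0.01, with values from -0.77 to 0.35, of which 43 were negative and 4 positive. Without the 3 shallow libraries 27 were lower and 1 higher. The genotypes did not overlap over all libraries for 5 members (4.83% of all genes), namely Plk1, Cdc20, Ube2c, Cdca3 and Top2a. DESeq2 called 10 lower, a fit of the compared groups alone 14, and pairs summed 9, where 7.15%, 12% and 6.2% of all tested genes were. Without WT LPS library 4 the count was 12 (8.48% of all tested genes). Without KO LPS library 5 it was 17 (12.5%), and without KO libraries 5 and 6 in all states 17 (14.7%). In the first of these fits only library 3 was deep in WT LPS, and in the last only library 8 in KO LPS. Summing in pairs joined the shallow WT LPS libraries 1 and 2.

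The smallest adjusted p belonged to the APC/C activator gene Cdc20, the separase gene Espl1 and the kinase gene Plk1. Cdc20 was at 23.4 and 24.2 CPM in the deep WT libraries and 14.2, 14.8 and 16.8 CPM in the deep KO libraries, a log2 fold change of -0.65 ± 0.089 (SE, adjusted p = 3.06e-06). Espl1, the protease that cuts the cohesin ring, was at 7.97 and 8.86 CPM in the deep WT libraries and 4.59, 5.30 and 4.98 CPM in the deep KO libraries (-0.77 ± 0.11, adjusted p = 4.11e-06). Plk1 was at 27.7 and 25.9 CPM in the deep WT libraries and 16.3, 14.4 and 17.3 CPM in the deep KO libraries (-0.75 ± 0.11, adjusted p = 5.37e-06). In these genes each deep KO library was below each deep WT library. The shallow libraries read 36.1 and 26.2 CPM in WT and 11.96 in KO for Cdc20, 5.16 and 10.5 and 0 for Espl1, and 25.8 and 31.4 and 0 for Plk1. Kif20a (-0.63 ± 0.11, adjusted p = 0.000103), Cdca8 (-0.47 ± 0.090, adjusted p = 0.000206) and Ncapd2 (-0.55 ± 0.11, adjusted p = 0.000206) completed the 6 leading genes, the first with the uncertainty of its overlap with Cdc23.

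Cdk1 was at 26.9 and 30.1 CPM in the deep WT libraries and 24.2, 25.2 and 24.5 CPM in the deep KO libraries (-0.22 ± 0.096, SE, adjusted p = 0.0772) and Mki67 at 24.96 and 27.9 CPM in the deep WT libraries and 23.4, 24.1 and 24.7 CPM in the deep KO libraries (-0.14 ± 0.11, adjusted p = 0.339). Neither passed, although each deep KO value was below the deep WT values. Top2a was at 47.4 and 48.3 CPM in the deep WT libraries and 32.996, 39.8 and 35.99 CPM in the deep KO libraries (-0.41 ± 0.11, adjusted p = 0.00457). Ube2c was at 24.9 and 25.5 CPM in the deep WT libraries and 21.1, 18.99 and 19.4 CPM in the deep KO libraries (-0.37 ± 0.11, adjusted p = 0.00998). These passed, again with the deep libraries of the genotypes apart. Aurkb was at 11.2 and 11.96 CPM in the deep WT libraries and 7.94, 9.01 and 7.49 CPM in the deep KO libraries (-0.51 ± 0.13, adjusted p = 0.00284). Nusap1 was at 6.70 and 7.49 CPM in the deep WT libraries and 5.63, 5.56 and 5.59 CPM in the deep KO libraries (-0.34 ± 0.11, adjusted p = 0.018). Ncapd2 was at 26.8 and 28.1 CPM in the deep WT libraries and 18.7, 17.4 and 19.4 CPM in the deep KO libraries, with no overlap in these 3 genes between the deep libraries.

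Tpx2 was the member that passed as higher in KO after LPS (0.35 ± 0.089, SE, adjusted p = 0.00393), at 43.3 and 44.7 CPM in the deep WT libraries and 59.8, 58.8 and 47.6 CPM in the deep KO libraries, with 30.9 and 26.2 CPM in the shallow WT libraries and 35.9 in the shallow KO library. KO libraries 5 and 6 were well above the deep WT libraries, and library 8 was close to them. Without KO libraries 5 and 6, where only library 8 was deep in KO LPS, the difference was 0.13 (adjusted p = 0.317). At rest and after IL-4 Tpx2 was lower in KO, at -0.20 ± 0.069 (adjusted p = 0.0386) and -0.34 ± 0.069 (adjusted p = 0.000379), with 76.8, 77.3, 69.7 and 76.1 CPM in WT M0 and 65.03, 66.2, 67.1 and 63.04 in KO M0.

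Over the 3 states, 20 members were lower in KO in each, among them Plk1, Aurkb, Cdc20, Ube2c, Espl1, Nusap1, Kif11, Ncapd2 and Top2a. A further 15 were lower in M0 and IL-4 but did not pass as lower in LPS, among them Cdk1, Ccna2, Ccnb2 and Mki67. Lower in LPS and IL-4 but not called in M0 were Ccnb1, Foxm1, Cdca3, Kif20a, Ect2 and Anln. Called in IL-4 but in neither other state were Ttk, Mad2l1, Ndc80, Kif4 and Smc4, and Kif23 was called in no state.

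Whether the responses themselves differed between the genotypes was tested as the interaction, the response of KO minus that of WT. For LPS, 3 of the 47 members were lower, where 4.81% of all tested genes were, and 1 was higher, where 6.6% were, so the members' shares of 6.38% and 2.13% were near or under those of all genes. The fall after LPS was steeper in KO for Plk1 (-0.47 ± 0.13, SE, adjusted p = 0.0208), Cdc20 (-0.40 ± 0.11, adjusted p = 0.019) and Espl1 (-0.49 ± 0.13, adjusted p = 0.0144), and shallower for Tpx2 (0.54 ± 0.11, adjusted p = 0.00189). With DESeq2 the 3 lower interactions were not called (1.46% of all tested genes lower), and without WT LPS library 4 none was (1.76%). Without WT LPS library 3, KO LPS library 5 or KO LPS library 6, the count was 1 in each case (1.55%, 3.24% and 2.58%). Without KO libraries 7 and 8 in all states the count was 7 (5.44%). Without KO libraries 5 and 6 none was lower (5.37%) and 2 were higher (7.44% of all tested genes), Incenp and Tpx2. The median interaction then turned from -0.04 to 0.10. Without KO libraries 5 and 6 only library 8 was deep in KO LPS. Without WT LPS library 3 or 4 only the other of them was deep in WT LPS. With the label number as a block 7 were lower and 1 higher, where 9.3% and 11% of all tested genes were.

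For IL-4, 0 members passed the interaction test in either direction, where 0.647% of all tested genes were lower, although 45 of the 47 estimates were negative with a median of -0.14. At an unadjusted p under 0.05 edgeR gave 6 lower members, and DESeq2 called 0. The 42 and 35 members called after IL-4 in WT and KO are therefore not shown to differ in response. The lowest adjusted p was 0.167, and without KO libraries 5 and 6 in all states 1 member, Ttk, was lower (2.08% of all tested genes). With the label number as a block 5 members were lower (4.51% of all tested genes), and when libraries were summed in pairs 0 were (0%).

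Other cell cycle genes gave the surroundings of the set. Of 75 further mitosis genes, 19 were lower in KO in M0, 21 in LPS and 57 in IL-4, where 10.4%, 14.5% and 18.1% of all tested genes were, with medians of -0.16, -0.14 and -0.33. With DESeq2 the 3 counts were 5, 7 and 22, and with libraries summed in pairs 3, 11 and 25. Of all tested genes 4.6%, 7.15% and 8.99% were lower with DESeq2, and 1.81%, 6.2% and 5.94% with pairs summed. In M0 cyclin F led (Ccnf, -0.60 ± 0.089, SE, adjusted p = 1.72e-05), after LPS the checkpoint gene Bub3 (-0.54 ± 0.070, adjusted p = 1.31e-06) and after IL-4 Cdca2 (-0.63 ± 0.078, adjusted p = 8.64e-07). Cenpo was higher in KO in LPS (0.44 ± 0.13, adjusted p = 0.00976). After LPS 67 of the 75 were lower in WT and 68 in KO, where 28.2% and 35.9% of all tested genes were lower. The condensin II subunit gene Ncapg2 led at -2.14 ± 0.094 (adjusted p = 1.1e-17) in WT and -1.89 ± 0.079 (adjusted p = 2.49e-18) in KO. The securin gene Pttg1 was higher after LPS, at 1.66 ± 0.089 (adjusted p = 1.21e-15) in WT and 1.99 ± 0.082 (adjusted p = 1.68e-18) in KO. After IL-4 55 were higher in WT and 41 in KO, where 30.8% and 26% of all tested genes were higher.

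Genes of DNA replication and S phase were also higher after IL-4. All 39 were higher in WT with a median of 0.92, and 36 in KO with 0.51, where 30.8% and 26% of all tested genes were higher. In WT the leading genes were the chromatin assembly factor gene Chaf1a (0.99 ± 0.058, SE, adjusted p = 2.42e-14), Uhrf1, which maintains DNA methylation (1.06 ± 0.069, adjusted p = 1.96e-13), and the sliding clamp gene Pcna (1.04 ± 0.071, adjusted p = 6.69e-13). In KO against WT 38 of 39 were lower in IL-4 (median -0.55), 19 in M0 and 12 in LPS, where 3 were higher, beside the same shares of all genes as above. The M0 count was 6 with DESeq2 and 2 with libraries summed in pairs, where 4.6% and 1.81% of all tested genes were lower. The IL-4 interaction was lower for 9 of the 39, where 0.647% of all tested genes were, led by the replication fork helicase gene Cdc45 (-0.56 ± 0.11, adjusted p = 0.0108), the origin licensing gene Cdt1 (-0.54 ± 0.12, adjusted p = 0.0204) and Uhrf1 (-0.43 ± 0.096, adjusted p = 0.0251). That count was 3 with DESeq2, 0 with libraries summed in pairs, 19 without KO libraries 5 and 6 and 27 with the label number as a block. Of all tested genes 0.34%, 0%, 2.08% and 4.51% were lower in these fits, in that order. After LPS 33 were lower in WT and 32 in KO, where 28.2% and 35.9% of all tested genes were lower. The transcription factor gene E2f2 led at -2.47 ± 0.18 (adjusted p = 7.09e-13) in WT and -3.22 ± 0.17 (adjusted p = 3.92e-16) in KO.

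Regulators above the set were mixed. Of 13 genes of the DREAM, RB and MYB complexes, which act at promoters of the kind printed above, 1 was lower in KO in M0 (Lin37, -0.30 ± 0.095, SE, adjusted p = 0.0225), where 10.4% of all tested genes were. After LPS 3 of the 13 were lower in KO, and after IL-4 8 were, against 14.5% and 18.1% of all tested genes. The IL-4 count was 3 with libraries summed in pairs, where 5.94% of all tested genes were lower. In IL-4 Tfdp1 (-0.45 ± 0.054, adjusted p = 4.93e-07), Mybl2 (-0.65 ± 0.078, adjusted p = 5.06e-07) and E2f4 (-0.35 ± 0.049, adjusted p = 4.54e-06) led. E2f5 was higher in KO in LPS (0.69 ± 0.097, adjusted p = 4.39e-06). Mybl2, the B-MYB factor that partners FOXM1, rose after IL-4 by 1.16 ± 0.079 (adjusted p = 6.68e-13) in WT and by 0.71 ± 0.079 (adjusted p = 1.78e-08) in KO. Of 9 inhibitors of the cycle, Cdkn1c was higher in KO in each state, at 1.39 ± 0.29 (adjusted p = 0.00186) in M0, 1.98 ± 0.43 (adjusted p = 0.00182) after LPS and 1.84 ± 0.31 (adjusted p = 0.000142) after IL-4, and so was Cdkn2b, at 0.37 ± 0.12 (adjusted p = 0.0299), 0.89 ± 0.16 (adjusted p = 0.000143) and 0.50 ± 0.12 (adjusted p = 0.00232). In M0 5 of the 9 were lower in KO, where 10.4% of all tested genes were, led by Cdkn2d (-0.38 ± 0.074, adjusted p = 0.00052), and 3 were higher (11.6%). After LPS 4 were higher (16.1%) and 0 lower (14.5%), and after IL-4 3 were higher (17.7%) and 2 lower (18.1%). With DESeq2 the M0 counts were 1 higher (5.21%) and 4 lower (4.6%). With libraries summed in pairs 0 passed in either direction in M0 (1.94% and 1.81%), so the M0 calls above were not all kept. After LPS Cdkn1a, the p21 gene, rose by 0.62 ± 0.071 (adjusted p = 1.47e-08) in WT and 1.23 ± 0.068 (adjusted p = 1.45e-15) in KO, with an interaction of 0.61 ± 0.098 (adjusted p = 0.000137).

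Of 12 genes of G1 entry, Cdk2 was lower in KO in each state, at -0.31 ± 0.062 (SE, adjusted p = 0.000516) in M0, -0.57 ± 0.082 (adjusted p = 6.27e-06) after LPS and -0.48 ± 0.062 (adjusted p = 1.22e-06) after IL-4. Myc rose after IL-4 by 1.504 ± 0.080 (adjusted p = 2.8e-15) in WT and 0.85 ± 0.079 (adjusted p = 6.1e-10) in KO, and its interaction was -0.65 ± 0.11 (adjusted p = 0.00208). The growth factor gene Csf1 was higher in KO in LPS (0.49 ± 0.098, adjusted p = 0.000377) and lower in M0 (-0.29 ± 0.088, adjusted p = 0.0166). The 13 subunits and partners of the anaphase-promoting complex had medians of -0.02 in M0, -0.06 in LPS and -0.04 in IL-4 for KO against WT. Of these genes 1, 3 and 4 were lower, where 10.4%, 14.5% and 18.1% of all tested genes were. In the same states 2, 1 and 1 were higher, where 11.6%, 16.1% and 17.7% of all tested genes were.

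**Figure D4:**
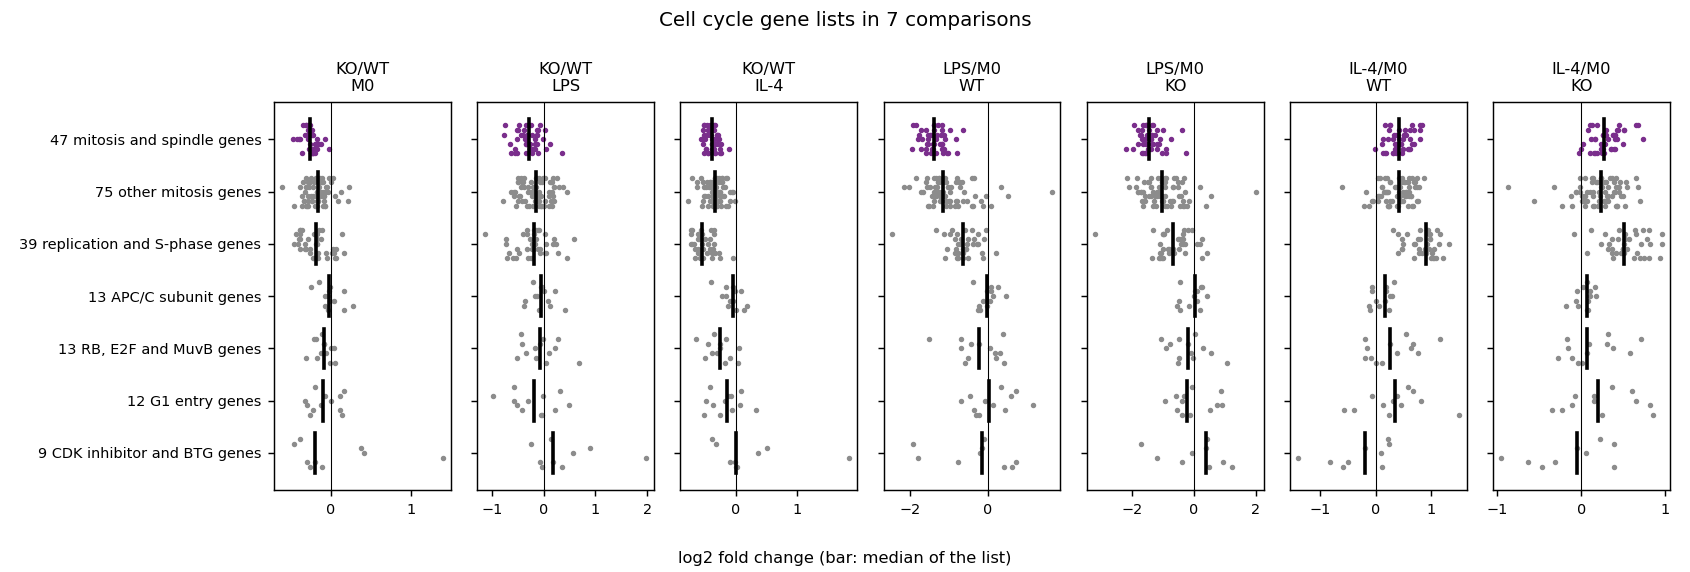
Log2 fold change of each of the 47 genes (purple) and of the genes of 6 other cell cycle lists (grey) in 7 comparisons, with a black bar at the median of each list. The bars of the mitosis and replication lists lie left of 0 after LPS and right of 0 after IL-4, and those of the 13 genes of the anaphase-promoting complex lie between -0.06 and 0.16.

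Markers of other cells differed with genotype. The 8 stromal markers, led by collagen genes, summed to 10317 to 12015 CPM in WT M0 and 14751 to 19242 in KO M0. They summed to 7339 to 7894 and 10796 to 14097 in IL-4, and to 13914 to 14203 and 18706 to 18809.5 in the deep LPS libraries. Of the 8, 6 were higher in KO in M0, 6 in LPS and 7 in IL-4, where 11.6%, 16.1% and 17.7% of all tested genes were. The 6 endothelial markers summed to 15.1 to 19.6 CPM in WT M0 and to 24.6, 27.4, 71.4 and 73.5 in KO M0, and to 20.4 to 23.9 in WT IL-4 and 19.5, 20.2, 44.5 and 43.7 in KO IL-4. In M0 and IL-4 they were highest in KO libraries 7 and 8, where the summed mitotic level of KO was lowest. In LPS they summed to 46.3 to 48.9 CPM in the deep WT libraries and to 85.4, 86.7 and 107 in the deep KO libraries 5, 6 and 8. There the mitotic level of library 8 (649 CPM) lay between those of 5 and 6 (642 and 654). The macrophage markers were lower in KO M0 for 4 of 8, led by Lyz2 (-0.87 ± 0.073, SE, adjusted p = 1.37e-09). In LPS 5 were lower and 2 higher, and in IL-4 1 was lower and 1 higher, with a median of 0.08. Their sums were lower in KO in these states too, as in M0. They were 15925 to 15959 CPM in the deep WT LPS libraries and 9806 to 10651 in the deep KO ones. In IL-4 they were 5547 to 6175 CPM in WT and 4946 to 5209 in KO. Of all tested genes 10.4%, 14.5% and 18.1% were lower in KO in M0, LPS and IL-4, and the shares higher were those given for the stromal markers. Progenitor markers (6 genes) summed to 84.8 to 110.3 CPM in WT M0 and 83.7 to 103 in KO M0, and overlapped. Neutrophil and precursor markers summed to 19.7 to 30.5 and 16.8 to 34.1 CPM. Of the markers tested, 1 of 5 progenitor and 3 of 11 neutrophil and precursor genes were higher in KO M0 and 0 lower. Their median log2 fold changes were 0.49 and 0.62, and 11.6% of all tested genes were higher. In the deep libraries the erythroid markers summed to at most 0.395 CPM, with Hba-a1 and Hbb-bs at 0. Mast cell and basophil markers summed to 19.3 to 23.7 CPM in WT M0 and 10.8 to 16.5 in KO M0, dendritic cell markers to 2.05 to 2.58 and 2.31 to 3.07, B cell markers to 21.96 to 28.9 and 27.1 to 32.7, and T and NK cell markers to 6.21 to 10.1 and 5.57 to 15.5, with Pax5, Cd3e and Tpsb2 at 0 in both. Between states, 7 of the 8 stromal markers were lower after IL-4 in both genotypes, where 29.1% (WT) and 25% (KO) of all tested genes were lower. After LPS 4 were higher in WT and 3 in KO, where 29.3% and 31.2% of all tested genes were higher. The part of these markers in the differences of the mitotic genes was not tested.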

How the data were processed

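RNA-seq counts of 24 libraries were analysed in 6 groups of 4. The authors deposited raw read counts for each gene symbol, 1 table per library. Per the submitters' processing notes, the authors used TopHat2 2.1.0, HTSeq 0.9.1 and the build mm10 (GRCm38). No source used here names the annotation, kit or strand setting. Summary lines (8.76 to 9.98% of the reads listed) were left out. The gene counts of a library, which set the precision, came to 63429271 to 94942464 for 21 libraries and 172771 to 209368 for the other 3.

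Library sizes were scaled by TMM and low genes removed by filterByExpr (minimum count 10) in edgeR 4.0.16 under R 4.3.3. Its quasi-likelihood test was run on 1 model of all 24 libraries, with 18 residual degrees of freedom, and p-values were Benjamini-Hochberg adjusted over 14693 genes, with a threshold of 0.05. Genotypes were compared within each state, stimulations with M0 within each genotype, and the responses between genotypes as interactions. SE is the standard error of a log2 fold change and SD the standard deviation over libraries. The procedure was tested on simulated data. No pair of replicates held identical counts. Deviations of every same-numbered pair of deep KO libraries across states correlated (r of 0.39 to 0.66). KO numbers 5 with 6, and 7 with 8, correlated too (M0 5 with IL-4 6 at 0.635, M0 7 with LPS 8 at 0.498). In KO the correlation thus followed these pairs of numbers, and pairing by single number was not shown there or in WT (-0.10 to 0.66).

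The members and all lists were chosen with earlier results of these data known. Values in every library are given for the member with the smallest adjusted p of each role group in M0, for 7 preset genes and, chosen after their values were seen, for Cdc20, Espl1 and Tpx2. Per contrast, statistics are given for the 6 called members lowest in adjusted p in each direction. Of each other list up to 3 called genes per direction could be named. The replication genes higher in KO after LPS are not named here. Alternatives were other size factors, no filter, DESeq2 1.42.0, only the groups compared, libraries left out, label numbers summed in pairs, and a block for the label number.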

Additional observations from a re-analysis of the deposited data

Results flagged for a closer look

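Within groups of 4 libraries of the 15 genes shown by library, plus the summed level, the highest or lowest value was tested against the others by Dixon's ratio. Of 96 groups tested, 12 had such a value, where chance gives about 1 in 20. Most came from the shallow libraries. In KO LPS library 7 these were Cdk1 at 5.98 CPM, Ccnb1 at 41.9, Ccnb2 at 5.98, Spc25 at 17.9, Prc1 at 12.0, and Plk1, Espl1 and Mki67 at 0. In WT LPS library 2 they were Aurkb at 20.9 CPM and Ube2c at 47.1, and in WT LPS library 1 Top2a at 56.7 CPM. A member had at most 11 counts in these libraries. The exception was a deep library, WT M0 library 3, in which Tpx2 was at 69.7 CPM.

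By the interaction test of edgeR, the response to LPS was called different between the genotypes for Plk1 (-0.47 on the log2 scale), Cdc20 (-0.40), Espl1 (-0.49) and Tpx2 (0.54). Of these 4 calls 0 were kept under every alternative. DESeq2 called only Tpx2, and summing label numbers in pairs called none. The members' shares of 6.38% lower and 2.13% higher were near or under those of all tested genes (4.81% and 6.6%). In Plk1 and Espl1 the shallow KO library had no count.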

How the results depend on the processing

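Each called member kept its direction under the alternatives run, in each contrast, but the median LPS interaction of the members turned from -0.04 to 0.10 without KO numbers 5 and 6. DESeq2 called 47 lower after LPS in each genotype, as edgeR did. It gave 5 lower in KO in M0, 10 in LPS and 28 in IL-4, 25 higher after IL-4 in WT and 12 in KO, and 0 lower LPS interactions. Summing label numbers in pairs, with fewer values per group, gave 0 lower in KO in M0, 9 lower and 0 higher in LPS, 29 lower in IL-4, 21 higher after IL-4 in KO, and 0 lower and 0 higher LPS interactions. A fit of the compared groups alone gave 14 lower in KO in LPS. Without KO numbers 5 and 6, 17 were lower and 0 higher in KO in LPS, 23 higher after IL-4 in KO, 0 LPS interactions lower and 2 higher, and 1 IL-4 interaction lower. Without KO numbers 7 and 8, 23 were lower in KO in M0 and 7 LPS interactions were lower. Without KO numbers 5 and 6 only library 8 was deep in KO LPS, and summing in pairs joined the shallow WT LPS libraries 1 and 2. Apart from the named constructions, the cause was not tested.

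Leaving out 1 library at a time, the lower members in KO numbered 22 to 37 in M0, 12 to 27 in LPS and 44 to 46 in IL-4. Of all tested genes 8.63 to 11.9%, 8.48 to 14.4% and 15.6 to 18.3% were lower in these fits. After LPS the lower members numbered 47 in each case in WT (22.4 to 35.6% of all tested genes) and 46 to 47 in KO (30.9 to 45.8%). The higher members after IL-4 numbered 37 to 40 in WT (24.9 to 25.9%) and 21 to 34 in KO (19.5 to 21.3%). The lower LPS interactions numbered 0 to 4 (1.55 to 6.5%). Without WT LPS library 3 or 4 only the other of them was deep in WT LPS. With plain library totals in place of TMM sizes the mean summed level was 2096 CPM in WT M0, 1752 in KO M0, 652 in WT LPS, 541 in KO LPS and 2667 in WT IL-4.

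No paired analysis was possible for KO against WT because the label numbers, 1 to 4 in WT and 5 to 8 in KO, share none. Within genotypes (10318 genes), same-numbered deep libraries of different states had a median r of 0.50 in KO, against -0.45 for different numbers, and of 0.14 against -0.04 in WT. In KO the different numbers 5 with 6, and 7 with 8, correlated positively, at up to 0.635, so the negative median came from the other pairs. A library correlated best with its own number in 11 of 20 comparisons in KO and 9 of 16 in WT. With the replicate block 47 members were lower after LPS in each genotype, 44 were higher after IL-4 in WT and 39 in KO, 7 LPS interactions were lower and 1 higher, and 5 IL-4 interactions were lower, against 0 with numbers summed in pairs. With that block 30.5% (WT) and 38.4% (KO) of all tested genes were lower after LPS, and 33.7% and 29.5% higher after IL-4. In the LPS interaction 9.3% were lower and 11% higher, and in the IL-4 interaction 4.51% were lower. In the shallow libraries single members could not be resolved at their depth.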
